A study of Mus musculus with 2 samples.

Results

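Transcripts of 9 chemokine receptors of leukocytes, Ccr1, Ccr3, Ccr6, Ccr7, Cxcr2, Cxcr3, Cxcr4, Cxcr5 and Cxcr6, were compared between spleen cells that bind the peptide Zfra, called Z(+), and spleen cells that do not, called Z(-). The genes were taken by symbol from the annotation of the array, which lists 1 probe for each of the 9, out of 26423 probes and 19084 named genes. Both fractions came from naïve NOD-SCID mice aged 6 to 8 weeks, the strain NOD.CB17-Prkdcscid/NCrCrl, which carries the scid mutation of Prkdc and lacks mature T and B cells. The cells were sorted directly after isolation, without culture and without any treatment, so both fractions share the strain, the age and the absence of exposure to Zfra before the sort. The labels do not state how the fractions were gated, and binding of labelled Zfra is inferred from the name Z and from sorts described elsewhere in the study. The description of the design names the number 8, which may stand for pooled spleens. There was 1 RNA sample for each fraction, measured on 2 technical arrays with 1 colour. With 1 sample per fraction no test and no p-value exists, and the number of arrays limits the precision.

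Chemokine receptors are membrane proteins coupled to inhibitory G proteins. They sense gradients of small secreted chemokines and steer leukocytes between bone marrow, blood and the compartments of the spleen. Receptors named Cxcr bind chemokines of the CXC family and those named Ccr bind chemokines of the CC family, and each type of leukocyte carries its own set. In bulk RNA of a sorted fraction, fewer cells of a type and less RNA per cell cannot be told apart.

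Of the 9 receptors, 5 were at least 2-fold lower in Z(+) while also bright, meaning that the mean of their log2 intensities reached the median over all genes, which corresponds to an intensity of 121. They were Cxcr6, Cxcr3, Cxcr2, Ccr6 and Ccr1. None of the 9 was both bright and at least 2-fold higher. Among the 9542 bright genes of the array, 6.14% were lower in Z(+) by 2-fold or more and 2.12% were higher. Cxcr4 and Cxcr5 were within 2-fold. Ccr3 and Ccr7 lay below the median brightness, and without a filter on brightness Ccr3 was the receptor at least 2-fold higher, where the share of all 19084 genes was 2.44% higher and 6.27% lower. The median log2 difference of the 9, Z(+) minus Z(-), was -1.11, and that of all genes was 0.03.

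**Figure D1:**
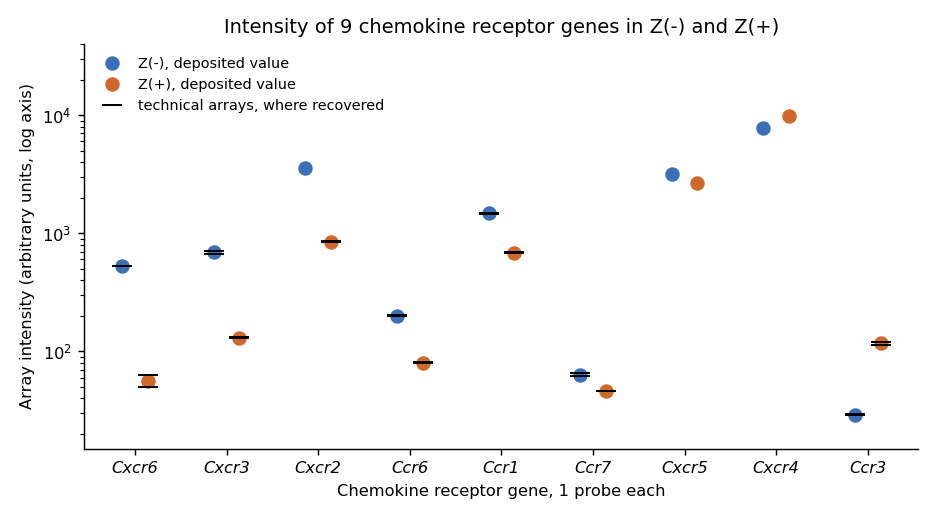
Array intensity of each of the 9 receptor genes on a log axis in arbitrary units, with Z(-) in blue and Z(+) in orange, ordered by the log2 difference from Cxcr6 on the left to Ccr3 on the right. Black dashes mark the 2 technical arrays of a sample where they could be recovered from the deposited value. The values of Cxcr6 fell from 527 to 56.7, while those of Ccr3 were 29.0 and 117.

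Cxcr6 and Cxcr3 were the receptors with the largest differences downward. Cxcr6, the receptor of the membrane-bound chemokine Cxcl16, is known from NK cells, innate lymphoid cells and effector T cells. Its intensity was 527 in Z(-) and 56.7 in Z(+), which is 9.29-fold lower. The arrays of Z(-) read 526.7 and 527.3, and those of Z(+) read 50.3 and 63.1. Thus the arrays of the fractions lay far apart, and the dimmer fraction had the wider spread. The log2 difference of -3.22 ranked 37 from the lowest among the 9542 bright genes, and it was -2.43 with a pseudocount of 50. Cxcr3, the receptor of the interferon-induced chemokines Cxcl9, Cxcl10 and Cxcl11 on NK cells and effector T cells, read 691 in Z(-) against 131 in Z(+), with a log2 difference of -2.40 and rank 80. Its arrays read 674 and 707 in Z(-), against 129 and 132 in Z(+), again without overlap.

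Most genes that mark NK cells were lower in the same fraction. Of 13 such genes, 11 passed 2-fold downward in Z(+), whatever their brightness, and none passed it upward. The intensities of the list summed to 56531 in Z(-) and 4145 in Z(+). Over all 19084 genes, 6.27% were lower and 2.44% higher, and these shares apply to each marker list below, counted at any brightness too. The lectin-like receptors Klre1 and Klrd1 were 24.1-fold and 22.6-fold lower and the transcription factor Tbx21 was 19.8-fold lower. Eomes, a bright gene of the same list, went the other way at 661 in Z(-) and 898 in Z(+), or 0.44 on the log2 scale. Ncr1, a defining marker, was dim in both at 5.50 and 5.52, and no marker of the list was at the floor. Whether the probe of a dim gene reports its transcript was not tested, here or for the dim markers below. Of 6 genes of innate lymphoid cells 4 were at least 2-fold lower, with sums of 3853 and 813. Thy1, a surface protein of T cells and innate lymphoid cells, had 1768 and 146. Of 12 T cell genes, measured in a strain that lacks mature T cells, 8 passed 2-fold downward, with sums of 14190 and 2379. Cd247, a signalling chain of the T cell receptor that NK cells use too, had 592 and 36.5, and Cd3d had 9971 and 1128, while Cd4 was dim in both at 36.5 and 40.1. Plasmacytoid dendritic cells were covered by 5 measured genes, and 3 of them fell at least 2-fold in Z(+), while 2 stayed within 2-fold. The summed intensity of the 5 was 18368 in Z(-) and 9778 in Z(+), most of it from Bst2 at 16689 and 9066. Ly6d had 674 and 151, and Siglech had 408 and 93.6. What part cells that express the genes of these lists had in the lower Cxcr6 and Cxcr3 was not tested.

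Cxcr2 and Ccr1, receptors of neutrophils and other myeloid cells, were lower as well. Cxcr2 binds Cxcl1 and Cxcl2 and releases neutrophils from the bone marrow. Its intensity fell from 3599 in Z(-) to 848 in Z(+), a log2 difference of -2.09 and rank 116. The technical arrays of Z(+) gave 839 and 858, and the brighter value of Z(-) was not split. Ccr1, a receptor of Ccl3, Ccl5, Ccl6 and Ccl9, had 1479 in Z(-) and 683 in Z(+). Its arrays gave 1470 and 1489 against 675 and 692, and its log2 difference of -1.11 had rank 476. Among 11 genes of neutrophils, 6 passed 2-fold downward and none upward, and their sum was 333571 in Z(-) and 201677 in Z(+). Much of this sum came from Ltf, Camp, S100a9 and Lcn2, which had 61735, 60239, 56286 and 51123 in Z(-), near the highest value of the array, 65528, where differences can be compressed. Lcn2 passed 2-fold despite its brightness, with 23488 in Z(+). The dimmer Il1r2, a decoy receptor of interleukin-1, had 3862 and 953, and Mmp8, a collagenase, had 8207 and 2128. Csf3r, also dimmer, went slightly the other way at 7852 and 9036. S100a8, of the same list as S100a9, was dim in both at 16.5 and 18.1. The 5 genes of granulocyte precursors were all at least 2-fold lower, with sums of 21956 and 5388, among them Ctsg, which encodes cathepsin G, at 8.15-fold. Macrophage genes went the other way, with 8 of 12 at least 2-fold higher and sums of 42000 and 77680, and Mertk, a receptor for dying cells, was 5.06-fold higher. Of 8 genes of monocytes none was at least 2-fold lower and 1 was higher, with sums of 111220 and 131423. The part of these cells in the lower Cxcr2 and Ccr1 was not tested.

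Ccr6, Cxcr5 and Ccr7 guide lymphocytes and dendritic cells within lymphoid organs, and only Ccr6 passed 2-fold. Ccr6, the receptor of Ccl20, is known from B cells, interleukin-17-producing lymphocytes and dendritic cells. Its intensity fell from 200.5 in Z(-) to 80.0 in Z(+), with technical arrays at 198 and 203 against 79.4 and 80.7. Its log2 difference was -1.32. Its mean log2 intensity of 6.98 stood just above the median of 6.92, and the call was lost with a pseudocount of 50, where the difference was -0.95. Cxcr5, the receptor of Cxcl13 that brings B cells into follicles, had 3154 in Z(-) and 2646 in Z(+), which is 1.19-fold lower. Ccr7, the receptor that leads mature dendritic cells and naïve T cells into T cell zones, had 63.5 and 46.5 and was dim in both fractions, with a log2 difference of -0.45. Of 11 B cell genes, measured in a strain that lacks mature B cells, 8 were within 2-fold. Bank1 just passed 2-fold upward at 115 and 230, and 2 dim genes were at least 2-fold lower. The sums of the list were 6285 in Z(-) and 6027 in Z(+), of which Cd22 alone held 4478 and 4100. Ms4a1 and Pax5, defining markers of B cells, were dim at 6.52 and 6.48 in Z(-) and at 5.52 and 5.39 in Z(+). Of 10 genes of conventional dendritic cells, 2 were at least 2-fold lower. The part of these cells in the values of Ccr6, Cxcr5 and Ccr7 was not tested.

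Cxcr4 was bright in both fractions and slightly higher in Z(+). This receptor of Cxcl12 is found on most leukocytes and holds them in the bone marrow. Its intensity was 7849 in Z(-) and 9758 in Z(+), a log2 difference of 0.31, and neither value was bright enough to be near the limit of the scanner or dim enough to be split into technical arrays.

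Ccr3 was the receptor with the largest difference upward. It binds the eotaxins Ccl11 and Ccl24 and is known from eosinophils and basophils. Its intensity was 29.0 in Z(-) and 117 in Z(+), which is 4.04-fold higher, or 2.01 on the log2 scale. The arrays read 28.7 and 29.3 in Z(-), against 114 and 120 in Z(+), and did not overlap. With a pseudocount of 50 the difference was 1.08. Most markers of basophils were lower, and so were the 2 markers of eosinophils that passed 2-fold. Of 5 eosinophil genes 2 passed 2-fold downward and none upward, with sums of 3934 and 869. Prg2, an eosinophil granule protein, carried this fall with 3226 in Z(-) and 157 in Z(+), and the other 4 summed to 708 and 712. Among these, Siglecf, the other gene past 2-fold, was dim and had 114 and 47.1. Epx, the eosinophil peroxidase, had 323 and 199, while Alox15, a lipoxygenase, was 1.80-fold higher at 244 and 438. Of 11 genes of basophils and mast cells 9 were at least 2-fold lower, with sums of 40707 and 4855, and Mcpt8, a basophil protease, fell from 10153.5 to 418. The part of these cells in the value of Ccr3 was not tested.

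**Figure D2:**
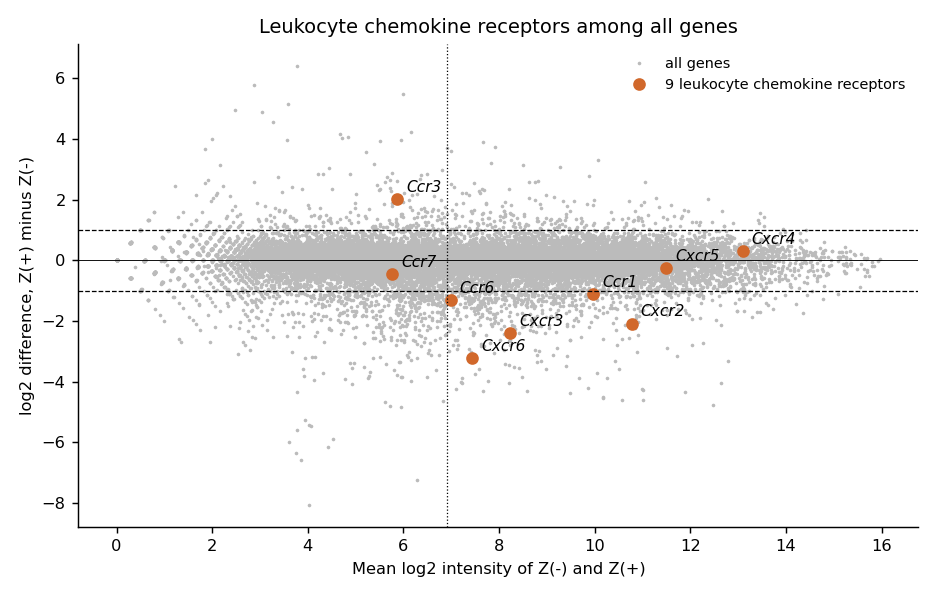
The log2 difference, Z(+) minus Z(-), of each gene against its mean log2 intensity, with all genes in grey and the 9 receptors in orange. Dashed lines mark 2-fold and the dotted line the median brightness of 6.92. Cxcr6, Cxcr3, Cxcr2, Ccr6 and Ccr1 lie below the lower dashed line to the right of the dotted line, and Ccr3 lies above the upper one on its left.

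Technical arrays could be recovered in both samples for 6 of the 9 receptors, and in none of them did the arrays of Z(-) and Z(+) overlap. Those of Z(+) were lower for 5, Cxcr6, Cxcr3, Ccr6, Ccr1 and Ccr7, and higher for Ccr3. Such separation was common, since 32.5% of 14199 genes were lower and 37.8% higher without overlap, so it sets no receptor apart. From array to array, the log2 difference of Cxcr6 ranged from -3.39 to -3.06, that of Cxcr3 from -2.46 to -2.35, that of Ccr6 from -1.35 to -1.30 and that of Ccr1 from -1.14 to -1.09. These ranges kept the order of the 4 receptors but contain only the error of hybridization, not that of the sort or of the mice. Where several splits fitted a value, those with arrays far apart were dropped, which can narrow a range. No second probe is listed for any of the 9. As a measure of what a single probe is worth, genes with exactly 2 probes, both bright, were examined. Of 52 such probes that were at least 2-fold lower in Z(+), the other probe of the gene was lower in 44 and at least 2-fold lower in 22, which is 42.3%.

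The promoters of the receptors that were lower together and of Cxcr4, which was not, are shown for 4 genes. Each sequence runs from 250 bases before the transcription start to 50 after it, as RefSeq gives it for GRCm38.p6, from 5′ to 3′ on the strand of the gene. Capitals mark the letters TGTGGT, bound by RUNX factors, and GGAAGT, bound by ETS factors, or their reverse complements, and TATAAA, the TATA box, on the strand of the gene. The letters were chosen with the sequences in view.
Cxcr6, chr9:123806227-123806526, plus strand: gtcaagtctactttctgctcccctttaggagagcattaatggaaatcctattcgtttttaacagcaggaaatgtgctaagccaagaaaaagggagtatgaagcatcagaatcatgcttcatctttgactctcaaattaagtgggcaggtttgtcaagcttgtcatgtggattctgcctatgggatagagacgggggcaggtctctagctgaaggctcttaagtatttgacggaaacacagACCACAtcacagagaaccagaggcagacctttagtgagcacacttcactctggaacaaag
Cxcr3, chrX:101734098-101734397, minus strand: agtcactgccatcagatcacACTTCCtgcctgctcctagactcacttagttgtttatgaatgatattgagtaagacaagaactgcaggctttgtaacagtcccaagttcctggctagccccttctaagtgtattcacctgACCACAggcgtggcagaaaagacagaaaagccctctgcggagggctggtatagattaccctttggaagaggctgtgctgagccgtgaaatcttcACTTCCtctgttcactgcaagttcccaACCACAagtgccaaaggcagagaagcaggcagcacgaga
Cxcr2, chr1:74153744-74154043, plus strand: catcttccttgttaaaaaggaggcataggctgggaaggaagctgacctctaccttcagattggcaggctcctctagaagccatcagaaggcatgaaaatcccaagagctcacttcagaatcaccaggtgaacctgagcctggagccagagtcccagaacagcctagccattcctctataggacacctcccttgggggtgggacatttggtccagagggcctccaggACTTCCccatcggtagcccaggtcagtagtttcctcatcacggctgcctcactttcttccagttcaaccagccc
Cxcr4, chr1:128592250-128592549, minus strand: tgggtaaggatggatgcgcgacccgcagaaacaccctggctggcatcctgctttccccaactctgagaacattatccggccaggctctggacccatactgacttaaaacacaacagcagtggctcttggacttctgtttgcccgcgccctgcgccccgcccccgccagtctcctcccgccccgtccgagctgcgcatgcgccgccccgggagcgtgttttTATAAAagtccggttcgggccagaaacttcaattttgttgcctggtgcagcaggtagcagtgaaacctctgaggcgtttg

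A promoter was listed for 7 of the 9 receptors, and Ccr6 had a pair of them. The RUNX letters stood in the promoters of 4 of the 5 lower receptors, Cxcr6, Cxcr3, Ccr6 and Ccr1, with Cxcr2 as the exception, and in neither Cxcr4 nor Ccr3. Ccr6 had them in only 1 of its promoters. They occurred in 16.8% of 32851 promoters of the same length, a share counted per promoter and not per gene. Since the letters were chosen with these sequences in view, the counts are no test of a difference between lower and other receptors. The ETS letters stood in those of Cxcr3, Cxcr2, Ccr6 and Ccr3 and in 23.8% of all. GGTGTGA, bound by T-box factors, was searched on both strands too and can share letters with the RUNX motif. It was in none of the 7 and in 3.98% of all. Cxcr4 had the TATA letters, as did 8.32% of all promoters, and 20 CpG dinucleotides. Those of Cxcr6, Cxcr3 and Cxcr2 had 3, 4 and 2 CpG, and those of Ccr1 and Ccr3 had 1 each, where the median of all promoters was 7. The promoters of Ccr6, another lower receptor, had 2 and 10. A match of letters is a description and does not show that a factor binds.

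The other receptors of the family were within 2-fold. Of 9 measured signalling receptors besides these, and of 5 atypical receptors, which take up chemokines without G protein signalling, none was at least 2-fold different at any brightness, where 6.27% of all genes were lower and 2.44% higher. Only 2 of the 9 and 2 of the 5 were bright, and no test compares them with the 9 leukocyte receptors. Ccr2, which brings monocytes from marrow to blood, had 2410 in Z(-) and 1978 in Z(+) over probes that disagreed, with log2 differences of 0.12 from the brighter and -0.69 from the other. Cx3cr1, the fractalkine receptor of patrolling monocytes, had 13367 and 14666. Ccrl2, which presents chemerin and signals little itself, was the highest of these in difference, at 9030 in Z(-) and 14173 in Z(+), or 0.65 on the log2 scale. Xcr1, which marks cross-presenting dendritic cells, was dim and lower at 123 and 63.1, with a log2 difference of -0.97. Ccr10 was dim as well at 73.5 and 42.2. Ackr1, which binds chemokines on red blood cells and vessels, had 368 and 392. Ccr9, a receptor of gut-homing lymphocytes, had a pair of probes that disagreed. The brighter had 387 in Z(-) and 215 in Z(+), a log2 difference of -0.85, and the other had 8.00 and 10.5, which left a mean of -0.23. Ccr4, Ccr8, Ccr1l1, Cxcr1, Ackr2, Ackr3 and Ackr4 were dim, with log2 differences between -0.17 and 0.22.

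**Figure D3:**
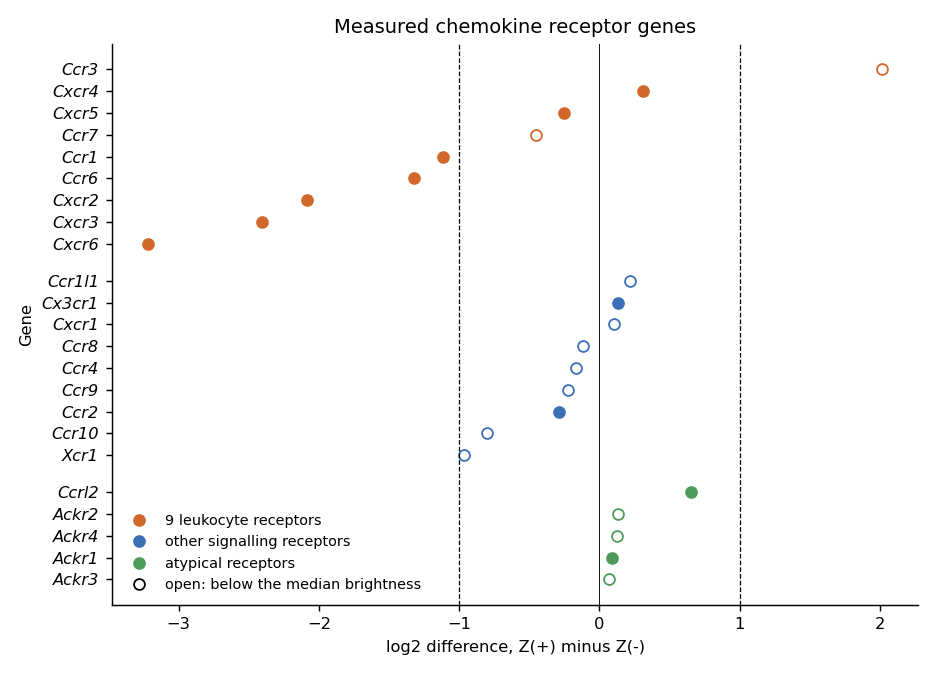
The log2 difference, Z(+) minus Z(-), of all measured chemokine receptor genes, with the 9 leukocyte receptors in orange, the other signalling receptors in blue and the atypical receptors in green. Open circles lie below the median brightness and dashed lines mark 2-fold. No blue or green point is past a dashed line, and the lowest of them is Xcr1 at -0.97.

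Cxcr6, Ccr1 and Ccr3 belong to a cluster of receptor genes on chromosome 9. In the order of the RefSeq gene table, the genes measured here run Ccr9, Fyco1, Cxcr6, Xcr1, Ccr1, Ccr1l1, Ccr3 and Ccr2. Their log2 differences in this order were -0.23, 0.16, -3.22, -0.97, -1.11, 0.22, 2.01 and -0.28. Thus the receptors of the cluster did not move as a block, and the lowest and the highest difference of the 9 receptors both lay within it.

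The ligands of the 9 receptors were mostly within 2-fold. Of 21 measured, 12 were bright, with 1 at least 2-fold lower in Z(+), 1 higher and 10 within 2-fold. Among all bright genes 6.14% were lower and 2.12% higher, so 1 of 12 in either direction does not set the ligands apart. Ccl5, a ligand of Ccr1 and Ccr3 made by NK and T cells, was lower, with 22398 in Z(-) and 2238 in Z(+), a log2 difference of -3.32. Cxcl13, the ligand of Cxcr5, was higher at 36.5 and 443, or 3.60 on the log2 scale, while Cxcr5 itself differed by -0.25. Ccl3 and Ccl4, further CC chemokines, had 34945 and 10905 in Z(-) and 25693 and 6885 in Z(+). Ccl6 and Ccl9, ligands of Ccr1 as Ccl3 and Ccl5 are, went the other way. They had 4834 and 494 in Z(-) and 7582 and 676 in Z(+), or 0.65 and 0.45 on the log2 scale. Cxcl2, a ligand of Cxcr2, had 13940 and 12473, so it differed by -0.16 where its receptor differed by -2.09. Cxcl16, the ligand of Cxcr6, had 320.5 and 426, and Cxcl12, the ligand of Cxcr4, had 105 and 141. Cxcl9, a ligand of Cxcr3, had 544 and 679, and Cxcl10 lay at the floor of 1 in both. The ligand of Ccr6, Ccl20, was dim at 6.50 and 6.01, as were those of Ccr3, Ccl11 at 48.5 and 56.5 and Ccl24 at 30.0 and 36.1.

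Genes that carry the signal of chemokine receptors inside the cell mostly lay within 2-fold, with members in both directions. Of 27 measured, 25 were bright, and 24 of these were within 2-fold, with a median log2 difference of -0.03. The 1 gene past 2-fold, lower in Z(+), stands beside 6.14% of all bright genes, so the list held no larger share. Gnai2, the main inhibitory G protein subunit of leukocytes, had 3282 in Z(-) and 2974 in Z(+), and Pik3cg, the kinase that receptors activate through G protein subunits, had 3389 and 3617. Rgs18, which shortens G protein signals in myeloid cells and platelets, was the gene past 2-fold, at 718 and 284.5. Arrb2, an arrestin that takes activated receptors out of the membrane, had 9893 and 5320, or -0.90 on the log2 scale. Grk3, a kinase that marks receptors for arrestin, had 13781 and 22489, and Prex1, an exchange factor for Rac, had 1408 and 2536.

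**Figure D4:**
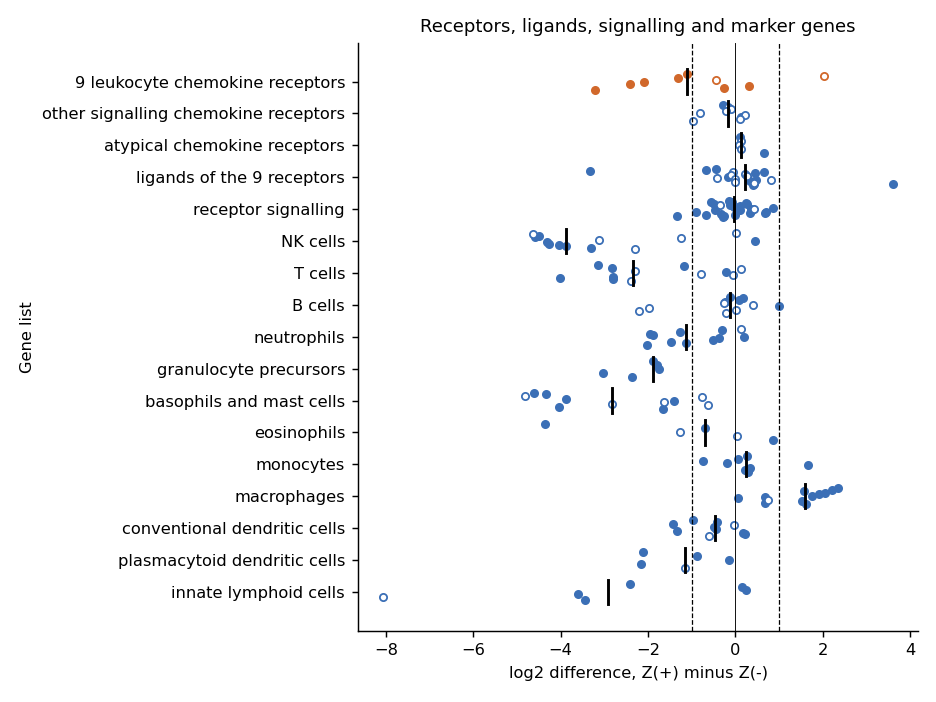
The log2 difference, Z(+) minus Z(-), of each measured gene of 17 lists, with the 9 receptors in orange, a black bar at the median of each list, open circles for genes below the median brightness and dashed lines at 2-fold. The receptor signalling genes sit around -0.03, the 9 receptors spread from -3.22 to 2.01, and the NK cell genes have a median of -3.88.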

How the data were processed

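The authors deposited 1 linear intensity per probe and sample, for Cy5-labelled amplified RNA. How the array was read, corrected for background and normalized was not given in the sources consulted. The deposited intensities had a median of 88.5 in Z(-) and 85.8 in Z(+), and 37 probes of each sample lay at or below 0. Values under 1 were set to 1 and log2 was taken, and no further normalization was applied. Probes were named through the platform annotation (1 symbol for 21876 probes, none for 4547), and 21825 matched a RefSeq gene of GRCm38.p6. Log2 values of several probes of a gene were averaged. A gene was called where its log2 difference was at least 1 in size and it was bright, with a mean log2 value no lower than the median over genes, 6.92.

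Deposited values under 2000 were split into 2 technical arrays by finding the whole numbers that give them with factors of 0.990 and 1.01 in Z(-) and 0.968 and 1.03 in Z(+). Where several pairs of whole numbers fitted, pairs more than 1.5-fold apart were dropped. A value was split only if 1 pair remained, so for such values the closeness of the arrays was partly set by this rule. The split worked for 99.8% and 99.5% of probes. Values simulated without this structure were split in up to 46.5% of cases above 400 and in up to 6.47% below, so the split of a single brighter value is less secure. On simulated data with the structure, all resolved splits were right. The simulated arrays lay closer together than the recovered arrays of Z(+), which differed by a median of 1.08-fold at intensities of 100 to 400. The simulation therefore does not show how often splits of Z(+) are right where its arrays differ more.

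The 9 receptors, the gene lists and the rule for named genes were chosen with earlier results of these data known. The rule names all chemokine receptors and, of each other list, up to 4 genes with the largest difference among bright genes, with the ligands of each receptor. Of the marker lists only some of these genes are printed. Some named genes lie outside the rule and were named after their values were seen. They are Gnai2, Pik3cg, Fyco1, Ncr1, Eomes, Cd4, Ms4a1, Pax5, Ltf, Camp, S100a8, S100a9, Lcn2, Csf3r and Siglecf. No gene was sought for a pattern like that of a receptor, since 2 samples give no pattern. Listed genes without a probe were not analysed here. Python 3.11.15, numpy 2.4.6, pandas 2.3.3, statsmodels 0.14.6 and matplotlib 3.10.9 were used. The alternatives were a pseudocount of 50, 3 scalings, the brightest probe of each gene, thresholds of 0.58 and 2 and other filters on dim genes.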

Additional observations from a re-analysis of the deposited data

How the results depend on the processing

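No paired analysis was possible because each fraction has 1 sample. Under the alternatives, 43 of 45 log2 differences of the receptors kept their call, 72 of 86 counts were identical, and no called receptor changed its direction. The lower receptors numbered 4 in place of 5 with a pseudocount of 50 and with the brightest probe. With a pseudocount of 50, the log2 difference of Ccr6 was -0.95 and the median of the 9 receptors moved to -0.95. With the brightest probe of each gene, Ccr6 kept its -1.32 but lay below the median brightness, since the median of all genes rose. With a threshold of 2 on the log2 scale, 3 receptors were lower in place of 5, with or without the filter on brightness, and 0 signalling genes. Ccr3 counted as 1 receptor higher with no filter or with an intensity of at least 100 in either sample. With a threshold of 0.58, 1 other receptor was higher, 2 ligands were lower and 2 higher, and 3 signalling genes were lower and 3 higher. With the brightest probe, 0 ligands were higher, because Cxcl13 fell below the median brightness. Centring each sample on its median shifted the median of all genes to 0.10. Dim values limit Ccr3 and Ccr7, and differences of 1 sample each carry no error of the sort.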
